A study of Mus musculus with 4 samples.

Results

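The genes described here are 7 auxiliary genes of voltage-gated sodium channels, taken by name from the 56035 gene rows of the expression table. They are the beta subunit genes Scn2b, Scn3b and Scn4b and the 4 FGF homologous factor (FHF) genes Fgf11, Fgf12, Fgf13 and Fgf14. Each name matched 1 row. RNA came from the trigeminal ganglion, which holds the cell bodies of sensory neurons of the face together with their glia. All mice were C57BL/6 males of 8 weeks. One group carried the K823R change in Trpv1 (labelled TRPV1 K823R transgenic, and described in the protocol as a knock-in), and the WT group were littermates without it. Each group had 2 libraries. The labels do not give the zygosity of the K823R allele or say how ganglia and animals were divided among libraries, so the p-values speak only of how far these libraries differ among themselves, and that spread may be technical. The TPM values hold no sequence, so the genotype itself could not be checked. Trpv1, the gene that carries the change, read 39.2 and 30.6 TPM in the WT libraries and 40.9 and 35.0 TPM in the K823R libraries.

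Voltage-gated sodium channels open on depolarization and carry the rising phase of the action potential. Their pore is a large alpha subunit, and several of the alpha subunits of sensory neurons are central to pain signalling. Beta subunits are single-pass membrane proteins with an extracellular immunoglobulin-like domain. They alter gating and surface delivery of the pore and can act as adhesion molecules. FHFs are built like fibroblast growth factors, but they stay inside the cell and bind the intracellular end of the alpha subunit, where they alter inactivation.

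Values are TPM, a measure of transcript abundance scaled for gene length and to an equal total in each library. Such values do not retain the number of reads, and the depth behind each is therefore unknown. Of the 7 genes, 6 reached a mean of 1 TPM over the 4 libraries and were tested with 15390 genes in all. Fgf14 had a mean under 1 TPM and was not tested. Libraries also differed in cell type markers. Of 20 oligodendrocyte and astrocyte markers, 18 were lowest in WT replicate 1, as were 13 of 13 fibroblast and meningeal markers and 11 of 12 macrophage markers. The 16 sensory neuron markers summed to 15523 TPM in WT replicate 1, 13495 TPM in WT replicate 2, 15046 TPM in K823R replicate 1 and 14329 TPM in K823R replicate 2. The 14 Schwann cell markers summed to 12370 to 15144 TPM in WT and to 15151 to 17862 TPM in K823R, and 6 pituitary markers to 2.54 to 4.80 TPM and 19.98 to 23.8 TPM. The part of these differences in the results below was not tested. In bulk tissue, fewer cells of a type and less RNA per cell cannot be told apart.

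The 7 genes lie on 5 chromosomes of GRCm38, by GENCODE M21. Scn2b (9, 45117782 to 45130070) and Scn4b (9, 45138395 to 45154152) are neighbours on the plus strand, with 8324 bases between them. Scn3b lies on the plus strand of the same chromosome from 40269217 to 40291618. Fgf11 (11, 69796068 to 69801857), Fgf12 (16, 28160098 to 28753068), Fgf13 (X, 59062145 to 59568071) and Fgf14 (14, 123977907 to 124677127) are on minus strands. Fgf11 spans 5790 bases, whereas Fgf12, Fgf13 and Fgf14 span 592971, 505927 and 699221 bases. Coding transcripts of Scn3b, Fgf12 and Fgf13 start at 3 places each and those of Fgf14 at 2, when starts within 1000 bases are counted together. The TPM of a gene adds its transcripts together, so forms with different starts were not separated.

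The sequence before a start is shown for Fgf13, Fgf12 and Fgf11, to describe its base content. Each line holds the 250 bases upstream of a RefSeq start in GRCm38.p6, 5′ to 3′ on the minus strand, and capitals mark CG dinucleotides, which read the same on both strands. Of 12 windows of these genes in the table, 5 hold no base of a GENCODE exon, and 3 of the 5 are shown. For Fgf12 and Fgf13, which have more than 1 such window, the one shown precedes a start shared with a GENCODE coding transcript. The Fgf11 window precedes a RefSeq start at 11 69802280, which is shared with 0 GENCODE coding transcripts. That start lies upstream of the GENCODE gene, so the Fgf11 window is not of the same kind as the other windows shown.
Fgf13, chrX:59134437-59134686: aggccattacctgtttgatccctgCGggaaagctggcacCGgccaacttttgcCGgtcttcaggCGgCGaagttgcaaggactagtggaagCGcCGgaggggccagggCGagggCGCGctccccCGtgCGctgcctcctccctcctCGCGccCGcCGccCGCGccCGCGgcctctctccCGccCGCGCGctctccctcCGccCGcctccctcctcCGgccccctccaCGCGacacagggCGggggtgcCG
Fgf12, chr16:28564952-28565201: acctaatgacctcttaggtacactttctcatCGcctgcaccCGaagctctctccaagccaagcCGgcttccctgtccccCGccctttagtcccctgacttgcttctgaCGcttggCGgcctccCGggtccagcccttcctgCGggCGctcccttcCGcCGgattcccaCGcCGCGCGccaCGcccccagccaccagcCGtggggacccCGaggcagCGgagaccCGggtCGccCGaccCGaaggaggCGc
Fgf11, chr11:69802281-69802530: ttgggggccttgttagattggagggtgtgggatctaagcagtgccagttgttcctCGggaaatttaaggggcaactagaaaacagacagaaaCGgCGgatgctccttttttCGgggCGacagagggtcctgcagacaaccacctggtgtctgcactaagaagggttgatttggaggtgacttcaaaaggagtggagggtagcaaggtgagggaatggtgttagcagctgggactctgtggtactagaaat
The Fgf13 window holds 31 CG dinucleotides, and 5.19% of the 32851 windows of that length in the RefSeq table hold at least as many. The Fgf12 window holds 24, a count reached by 11.98% of windows. The Fgf11 window holds 5, and 55.6% of windows hold at least as many. The other 2 windows clear of exons have fewer than the one shown for the same gene. They precede an Fgf13 start at X 59585572, with 2, and an Fgf12 start at 16 28753243, with 18, so base content differs between starts of the same gene. The TPM values do not show which start was used, and these counts are a description of the sequence.

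The transcript levels of the 7 genes covered more than 2 orders of magnitude, in the same order in all 4 libraries. From highest to lowest the order was Fgf13, Scn4b, Fgf12, Scn3b, Scn2b, Fgf11 and Fgf14. No gene's range over the libraries overlapped that of its neighbour in this order. The closest neighbours were Scn4b and Fgf12, with Scn4b between 1.11 and 1.24 times as high within a library. Fgf13 stood between 378 and 517 times above Fgf14. TPM is scaled for length, so these levels can be compared between genes, but only roughly. Which forms of each gene were present is not known, and this bears most on close neighbours such as Scn4b and Fgf12.

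**Figure D1:**
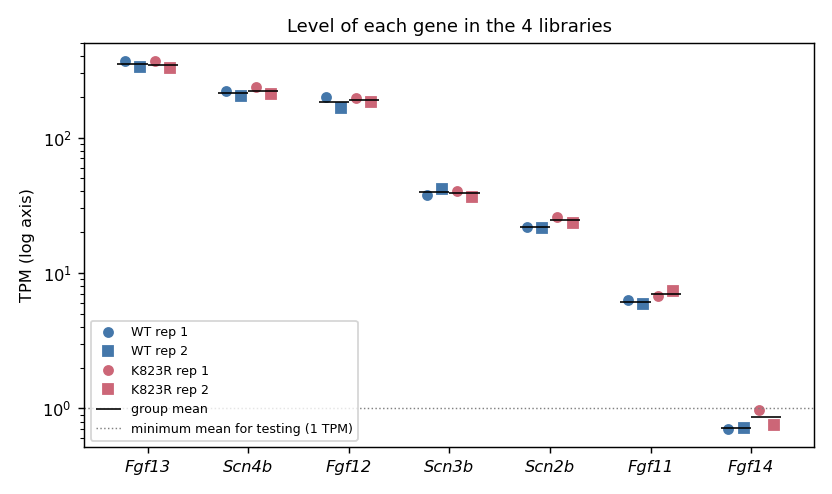
Level of each gene in TPM (log axis) in the 2 WT libraries (blue) and the 2 K823R libraries (red), with replicate 1 as circles, replicate 2 as squares and group means as lines. The genes keep 1 order in every library, from Fgf13 at 324 to 367 TPM down to Fgf14 at 0.71 to 0.97 TPM.

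Of Scn2b, Scn3b and Scn4b, Scn4b was the most abundant, and its group means lay closer together than its replicates. Scn4b encodes a beta subunit that is linked to the alpha subunit by a disulfide bond and whose intracellular tail can block the open pore, which gives resurgent current. It read 222 and 203 TPM in the WT libraries and 234 and 208 TPM in the K823R libraries, and the groups overlapped. On the log2(TPM + 1) scale the difference, taken as K823R minus WT, was 0.05 (standard error, SE, 0.09; 95% confidence interval, CI, -0.19 to 0.30; limma adjusted p = 0.958). That interval spans 0.875-fold to 1.23-fold. Scn4b is a marker of large-diameter neurons in sensory ganglia, and its ratio to Nefh, the heavy neurofilament gene of those neurons, was 0.185 and 0.199 in WT and 0.196 and 0.188 in K823R.

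Scn3b and Scn2b were lower in level. Scn3b encodes a beta subunit that binds the alpha subunit without a covalent bond. It read 37.5 and 41.75 TPM in the WT libraries and 40.6 and 36.6 TPM in the K823R libraries, with overlapping groups. The change on the log2 scale was -0.04 (SE 0.10, 95% CI -0.30 to 0.23, limma adjusted p = 0.977). Scn2b encodes the other disulfide-linked beta subunit of this set, which promotes delivery of channels to the cell surface. It read 21.9 and 21.6 TPM in the WT libraries and 26.1 and 23.5 TPM in the K823R libraries. The K823R libraries were the higher 2 of the 4, and the groups did not overlap. The change on the log2 scale was 0.18 (SE 0.09, 95% CI -0.07 to 0.42), and Scn2b did not pass the test (limma adjusted p = 0.918).

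The FHF genes divided into an abundant pair and a scarce pair. Fgf13, an X-linked gene whose product binds sodium channels and microtubules, read 367 and 333 TPM in the WT libraries and 367 and 324 TPM in the K823R libraries. Replicate 1 was the higher library in each group, and the groups overlapped. The change on the log2 scale was -0.02 (SE 0.10, 95% CI -0.27 to 0.23, limma adjusted p = 0.989), which spans 0.829-fold to 1.17-fold. Fgf13 ranked 451 by mean level among the genes tested, with 97.1% of them below it. Fgf12, whose product modulates inactivation of neuronal and cardiac sodium channels, read 201 and 165 TPM in the WT libraries and 195 and 182 TPM in the K823R libraries. Both K823R libraries lay between the 2 WT libraries. The change on the log2 scale was 0.05 (SE 0.12, 95% CI -0.26 to 0.36, limma adjusted p = 0.973).

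Fgf11 and Fgf14 were the scarce pair. Fgf11, which encodes the FHF of the shortest gene here, read 6.32 and 5.9 TPM in the WT libraries and 6.73 and 7.33 TPM in the K823R libraries. The K823R libraries were again the higher 2, without overlap. The change on the log2 scale was 0.18 (SE 0.12, 95% CI -0.15 to 0.50, limma adjusted p = 0.918). Fgf14, whose product is an FHF of central neurons such as those of the cerebellum, read 0.71 and 0.72 TPM in the WT libraries and 0.97 and 0.75 TPM in the K823R libraries. Those values are near the bottom of the scale, and an exonic stretch of 220 bases of Fgf14 is shared with an antisense gene, Gm28932, that was listed at 0 in every library.

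As a set, 0 of the 6 members in the fit reached an adjusted p below 0.05 by limma, and 0 had an unadjusted p below that value. Of all 15390 genes, 0.0065% passed and 4.76% had an unadjusted p under 0.05. The groups did not overlap for 2 of the 6, Scn2b and Fgf11, both higher in K823R, and for 34.0% of all genes tested (19.4% with K823R higher and 14.6% with K823R lower). The share among these genes, 33.3%, was near that background. Of the 6, 4 had a difference above 0 and 2 below it, against 57.4% of all genes above 0. Their median log2 difference was 0.05, beside 0.026 for all genes. The median moved to 0.15 without WT replicate 1 and to -0.016 without K823R replicate 1.

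**Figure D2:**
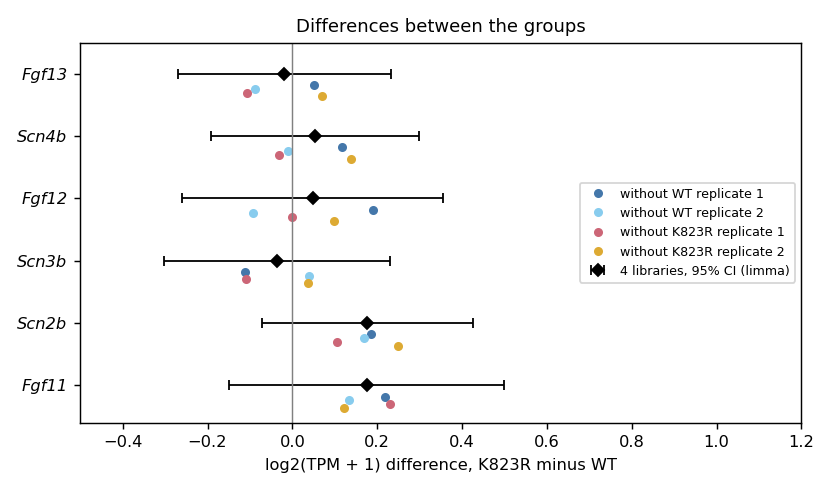
Log2(TPM + 1) difference, K823R minus WT, for the 6 genes tested. Diamonds with bars are the fit to all 4 libraries with its 95% confidence interval, and coloured dots are the fits with 1 library left out. Every interval includes 0, and the dots of Fgf13, Scn4b, Fgf12 and Scn3b lie on both sides of 0, whereas those of Scn2b and Fgf11 lie above it.

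The sign of the difference rested on single libraries for 4 of the 6 genes. Fgf13 was 0.05 without WT replicate 1 and 0.07 without K823R replicate 2. Scn4b was -0.01 without WT replicate 2 and -0.03 without K823R replicate 1. Fgf12 was 0.19 without WT replicate 1 and -0.09 without WT replicate 2. Scn3b was 0.04 without WT replicate 2 and 0.04 without K823R replicate 2. For Scn2b and Fgf11 the groups did not overlap, so leaving out 1 library could not reverse the sign. Scn2b stayed between 0.10 and 0.25 over 14 alternatives. Fgf11 stayed between 0.12 and 0.23 over 13, since with a mean of at least 10 TPM it was not tested. Neither passed in any alternative that tested it.

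The makeup of each family was then compared, and for the leading gene of each the group means of its share lay closer together than the WT replicates. A share within a library does not depend on the total to which TPM is scaled. Fgf13 made up 63.8% and 66.04% of the summed FHF TPM in WT and 64.5% and 63.1% in K823R. The difference of the means was -1.17 percentage points (exact permutation test, two-sided, p = 0.667), in a design of 2 against 2 where the smallest possible p is 0.333. Fgf12 made up 34.9% and 32.6% in WT and 34.2% and 35.3% in K823R. The scarce members' shares did not overlap between groups, but only narrowly. In levels, the groups did not overlap for 34.0% of all genes tested. Fgf11 made up 1.10% and 1.17% in WT and 1.18% and 1.43% in K823R, and Fgf14 0.124% and 0.143% in WT and 0.170% and 0.146% in K823R (exact permutation test, two-sided, p = 0.333 for each). Scn4b made up 78.9% and 76.2% of the summed TPM of Scn2b, Scn3b and Scn4b in WT and 77.8% and 77.6% in K823R (difference 0.135 percentage points, exact permutation test, two-sided, p = 1). Without WT replicate 2 that difference was -1.20 percentage points. Scn3b made up 13.3% and 15.66% in WT and 13.5% and 13.7% in K823R, with overlapping groups (exact permutation p = 1). Scn2b made up 7.78% and 8.11% in WT and 8.67% and 8.76% in K823R, and its groups did not overlap (exact permutation p = 0.333). The ratio of Scn3b to Scn2b was 1.71 and 1.93 in WT and 1.557 and 1.560 in K823R, so its groups did not overlap (exact permutation p = 0.333, the smallest possible). That ratio was chosen after its values were seen.

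**Figure D3:**
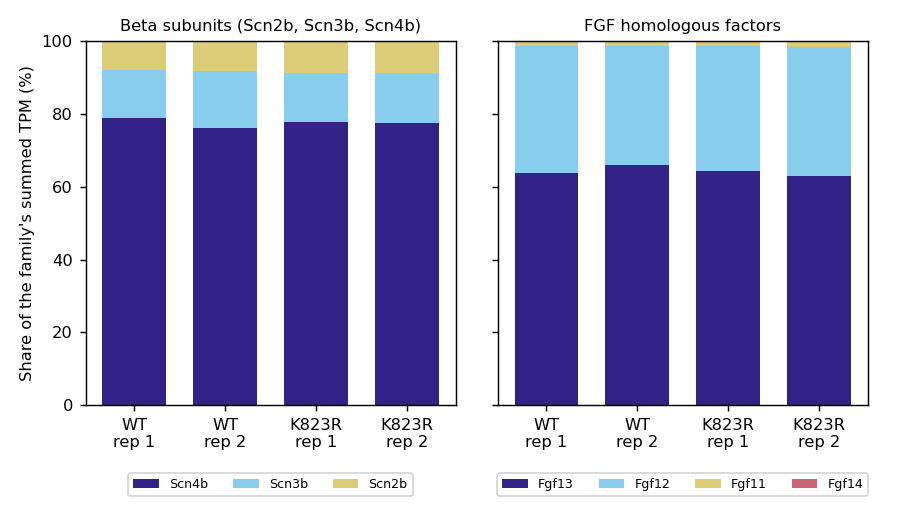
Share of each gene in the summed TPM of its family, in percent, for each of the 4 libraries. Scn4b holds 76.2% to 78.9% of the sum of Scn2b, Scn3b and Scn4b and Fgf13 holds 63.1% to 66.04% of the FHF sum, and Fgf14 is too small to be seen.

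Relative to the alpha subunit genes, the group ranges of both families overlapped. The 10 alpha subunit genes summed to 487 and 417 TPM for WT and 498 and 433 TPM for K823R. That sum includes Scn7a, an atypical family member that is also among the Schwann cell markers. Scn7a read 78.9 and 84.0 TPM in the WT libraries and 84.08 and 73.15 TPM in the K823R libraries. The FHF sum was 1.18 and 1.21 times the alpha sum in WT and 1.14 and 1.19 times in K823R. For Scn2b, Scn3b and Scn4b together the ratio was 0.578 and 0.639 in WT and 0.604 and 0.619 in K823R.

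The levels of the abundant members moved with the sensory neuron markers from library to library. The median deviation of the 16 neuron markers from their own 4-library means was 0.07 and -0.10 on the log2 scale in the WT libraries and 0.05 and -0.02 in the K823R libraries. Fgf12 deviated by 0.12, -0.17, 0.07 and -0.03 in the same libraries. Fgf13 deviated by 0.08, -0.06, 0.08 and -0.10, and Scn4b by 0.04, -0.09, 0.11 and -0.06. All 3 were above their mean in WT replicate 1 and K823R replicate 1 and below it in the other libraries, as the neuron markers were; the part of neuron content in these levels was not tested. Scn3b was the opposite in the WT pair, at -0.06 and 0.09. The Schwann cell and macrophage medians were lowest in WT replicate 1, at -0.19 and -0.50. With every library centred on the neuron markers, the difference was 0.02 for Fgf12, 0.03 for Scn4b and -0.05 for Fgf13. For Scn2b and Fgf11 it was 0.15 in each case, and neither passed (limma, adjusted p = 0.987 for each).

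**Figure D4:**
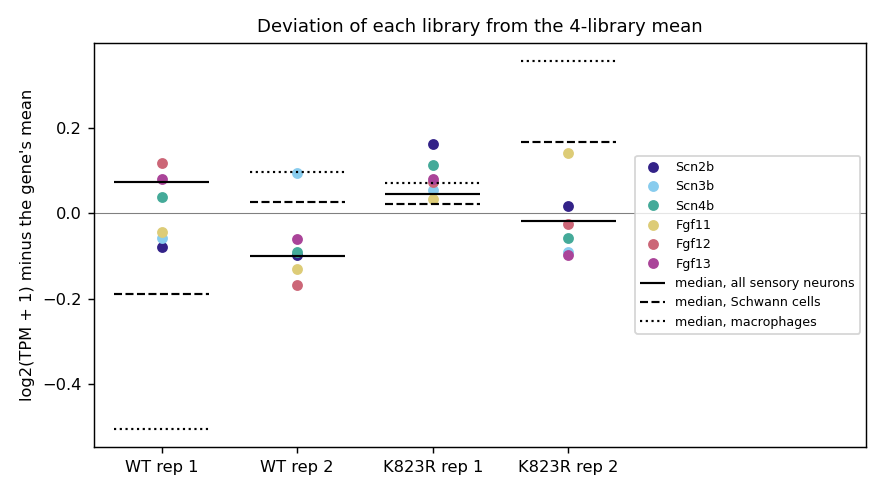
Log2(TPM + 1) of each of the 6 genes tested minus its own mean over the 4 libraries (coloured points), with the median of the same quantity for markers of sensory neurons (solid), Schwann cells (dashed) and macrophages (dotted). Fgf12, Fgf13 and Scn4b lie on the same side of 0 as the neuron markers in each library, and the macrophage median runs from -0.50 in WT replicate 1 to 0.36 in K823R replicate 2.

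Over the 4 libraries, likeness was measured as the largest gap between the deviations of a pair of genes, among 107 listed neuronal, channel and growth factor genes. The nearest to Scn4b was Kcna2, a potassium channel gene, with a largest gap of 0.012 on the log2 scale, and 13 of 15389 genes lay as near. Pdzd2 was nearest to Scn3b (gap 0.025, 19 genes as near), and Ntrk3, a neurotrophin receptor gene, was nearest to Fgf13 (0.025, 40 genes). Nefh was nearest to Fgf12 (0.030, 71 genes), Gap43, a growth cone gene, to Fgf11 (0.047, 82 genes) and Camk2b to Scn2b (0.053, 171 genes). With 4 libraries no correlation is given.

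The other genes of the sodium channel complex did not pass either. Of 9 alpha subunit genes tested, 0 passed limma in either direction, 6 were above 0, 3 were below and 0 had an unadjusted p under 0.05. Their median log2 difference was 0.04. Scn10a, an alpha subunit of nociceptors, read 175 and 134 TPM in the WT libraries and 182 and 146 TPM in the K823R libraries. Scn11a, another nociceptor alpha subunit, read 105 and 82.4 TPM against 104.6 and 95.4 TPM. Scn7a, an atypical sodium-sensing family member, had means of 81.45 and 78.6 TPM. Scn2a, mainly an alpha subunit of central axons, had means of 2.74 and 2.34 TPM (limma, adjusted p = 0.935). Of 35 anchors, binding partners and proteases, 0 passed, 26 were above 0 and 9 below, with a median of 0.07. S100a10, which carries an alpha subunit to the membrane, was the only 1 of that list with an unadjusted p under 0.05. It read 1657 and 1676 TPM in the WT libraries and 1422 and 1429 TPM in the K823R libraries, a log2 difference of -0.22 with SE 0.06 (limma, adjusted p = 0.918). The contactin gene Cntn2 had means of 52.55 and 60.5 TPM (limma, adjusted p = 0.918), and the calmodulin genes Calm2 and Calm3 averaged 2417 and 1250.3 TPM in WT against 2418 and 1241 TPM in K823R.

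The secreted fibroblast growth factors, which unlike FHFs act through surface receptors, were likewise short of the threshold. Of 18 genes, 8 were tested by limma and 0 passed, with 0 at an unadjusted p under 0.05, 4 above 0, 4 below and a median of -0.0080. Fgf1 was the most abundant, with 291 and 287 TPM for WT and 296 and 289 TPM for K823R. Fgf1 was thus below Fgf13 in every library. Fgf18 averaged 20.4 TPM for WT and 20.5 TPM for K823R, and Fgf9 averaged 17.15 and 16.35 TPM. Fgf7 averaged 8.24 and 7.33 TPM, and Fgf2 averaged 5.54 and 4.99 TPM. Of 7 receptor and coreceptor genes 4 were tested by limma and 0 passed, with 0 at an unadjusted p under 0.05 and a median of 0.10. Fgfr1 had means of 84.3 and 89.8 TPM and Fgfrl1 of 5.67 and 6.12 TPM. Fgfr2 stood at 24.2 TPM in WT replicate 1 against 4.27, 4.43 and 7.54 TPM in the other libraries (limma, adjusted p = 0.935).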

How the data were processed

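Per the labels' protocols, mRNA libraries were read from both ends. Per the submitters' processing notes, the build was GRCm38.p6 and the tools included RSEM, HISAT2, edgeR and fastp 0.19.5, with no role stated for any. Which annotation release was used, and whether counting used strand, is not given in the sources used. The authors deposited TPM per gene and library. The 2 deposited group means and the deposited gene length were not used.

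Groups came from sample titles. Genes averaging 1 TPM or more across libraries were tested with limma 3.58.1 in R 4.3.3 on log2(TPM + 1), with a variance trend and all 4 libraries, two-sided, with Benjamini-Hochberg adjustment over 15390 genes and a threshold of 0.05. The log2(TPM + 1) scale understates the change of low genes. The fit had 2 residual and 2.67 prior degrees of freedom and was tested on simulated data. Tables were handled in Python 3.11.15 with pandas 2.3.3. The members and gene lists were chosen with earlier results of these data known. The rule for named genes took all 7 members, and from each of the 4 channel and growth factor lists the 3 most abundant genes and the 2 with the smallest p. Genes of ratios were added outside it. One result is not reported here. A BLAST 2.17.0 search of GENCODE M21 found 0 transcripts of other genes that match a member at 95% identity over 90% of its length. Alternatives were another pseudocount, other filters, other scalings, no variance trend, a replicate block and each library left out. Centring on the neuron markers and the alternatives for the Scn4b share were added after the data were seen.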

Additional observations from a re-analysis of the deposited data

How the results depend on the processing

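Over the 14 alternatives fitted across genes, 0 members passed in any, and Scn2b and Fgf11 kept their direction wherever they were tested. The groups of Scn2b and Fgf11 did not overlap, so leaving out 1 library could not have reversed their direction. With each library left out in turn, the members' median log2 difference ran from -0.016 to 0.15. Over the same omissions the difference in the Fgf13 share ran from -2.27 to -0.067 percentage points and that in the Scn4b share from -1.20 to 1.47. Signs reversed for 4 genes with a library left out, for which the log2 difference ran from -0.11 (without K823R replicate 1) to 0.070 (without K823R replicate 2) for Fgf13, from -0.032 (without K823R replicate 1) to 0.14 (without K823R replicate 2) for Scn4b, from -0.094 (without WT replicate 2) to 0.19 (without WT replicate 1) for Fgf12 and from -0.11 (without WT replicate 1) to 0.039 (without WT replicate 2) for Scn3b. The 1 gene that passed over all genes, the pseudogene Gm43110, was listed at 0 in both WT libraries. The count was 2 with a mean of at least 10 TPM (Gm11007 as well), and it was 0 with no filter, with no variance trend, with centring on the neuron markers and without any one library (0 to 0). At an unadjusted limma p under 0.05 those counts of 0 stood beside 574 to 1210 genes. The cause was not tested. With the replicate block 0 genes passed and the members' median was 0.05. Nothing in the labels says that the numbers mark a shared litter or day, and same-numbered libraries' deviations correlated at 0.05 across genes. Depth is unknown in TPM, so no counting error is given for Fgf14 or Fgf11.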
